A study of Mus musculus with 6 samples.

Results

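The genes described are 7 enzymes of cholesterol synthesis, *Hmgcs1*, *Idi1*, *Fdps*, *Fdft1*, *Sqle*, *Lss* and *Dhcr7*, chosen by symbol. All 7 were measured, out of 24700 genes with a probe on the array, and none of the 7 takes up cholesterol, so uptake genes were examined as a separate list. Expression was compared in LSK cells, bone marrow cells that lack lineage markers and carry Sca-1 and c-Kit, a fraction of HSCs and early progenitors, sorted from C57BL/6 mice at P6 to P8. The 3 control samples were labelled Atg5w/w;VaviCre+ and the other 3 Atg5f/f;VaviCre+, called Atg5f/f;Vav here. Both groups thus carried the Vavi-Cre transgene, which is active across the haematopoietic system, and they differed by the floxed *Atg5* alleles, *Atg5* being a gene required for autophagosome formation. Each sample was hybridised to 1 single-colour Agilent array, and no source used here states how many mice gave 1 sample. Values of n and SD therefore refer to arrays, and p values measure the spread between arrays only.

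Cholesterol is built from acetyl-CoA through the mevalonate pathway, which also supplies isoprenoids for protein prenylation, ubiquinone and dolichol. When sterols in the endoplasmic reticulum run low, the protein SCAP carries SREBP transcription factors to the Golgi, where they are cleaved and released to the nucleus to activate genes of synthesis and uptake. SREBP2 acts mainly on cholesterol genes and SREBP1c mainly on fatty acid genes. Dividing blood progenitors need sterols for new membranes.

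Promoter windows are shown because genes of this pathway are known for shared SREBP control. The RefSeq table (build GRCm38.p6) held windows of 250 bases before to 50 bases after a start site for 4 of the 7 genes, *Hmgcs1*, *Idi1*, *Lss* and *Dhcr7*. Both strands were searched for the sterol regulatory element core TCACNCCAC, the CCAAT box and the E-box CACGTG, which reads the same on both strands. Capitals mark the matches, no 2 of which overlapped, and ATTGG is the CCAAT box on the opposite strand. The windows lie on the plus strand at chr13:119690101-119690400 for *Hmgcs1*, chr13:8885356-8885655 for *Idi1*, chr10:76531355-76531654 for *Lss* and chr7:143829964-143830263 for the third of 3 *Dhcr7* windows.
Hmgcs1: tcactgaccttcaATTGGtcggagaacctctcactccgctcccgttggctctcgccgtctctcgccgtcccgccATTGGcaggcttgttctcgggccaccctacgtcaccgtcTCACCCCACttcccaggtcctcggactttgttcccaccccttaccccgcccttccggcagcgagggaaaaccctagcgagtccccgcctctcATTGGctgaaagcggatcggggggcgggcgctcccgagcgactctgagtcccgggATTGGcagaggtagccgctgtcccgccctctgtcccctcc
Idi1: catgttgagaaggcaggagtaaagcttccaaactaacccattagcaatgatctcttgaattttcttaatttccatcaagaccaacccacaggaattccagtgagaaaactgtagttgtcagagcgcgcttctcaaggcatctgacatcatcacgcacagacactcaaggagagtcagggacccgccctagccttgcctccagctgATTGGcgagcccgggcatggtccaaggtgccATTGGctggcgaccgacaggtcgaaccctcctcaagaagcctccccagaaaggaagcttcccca
Lss: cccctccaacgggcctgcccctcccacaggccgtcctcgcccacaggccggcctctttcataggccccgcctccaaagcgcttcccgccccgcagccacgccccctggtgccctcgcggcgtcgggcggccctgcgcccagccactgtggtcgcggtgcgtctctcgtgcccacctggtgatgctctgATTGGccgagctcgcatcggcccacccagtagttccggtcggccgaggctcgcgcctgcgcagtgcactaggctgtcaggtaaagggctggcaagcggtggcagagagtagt
Dhcr7: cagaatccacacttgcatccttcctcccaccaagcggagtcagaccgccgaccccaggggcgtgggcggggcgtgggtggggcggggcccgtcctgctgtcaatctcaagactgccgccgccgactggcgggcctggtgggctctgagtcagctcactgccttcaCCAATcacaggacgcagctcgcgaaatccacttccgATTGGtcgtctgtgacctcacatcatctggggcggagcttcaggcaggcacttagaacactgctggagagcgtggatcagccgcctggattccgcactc
The sterol element core was found in the *Hmgcs1* window, 137 bases before the start site, and in no other of these windows. This core occurs in 1.24% of all 32851 windows of this length. CCAAT boxes were found 4 times for *Hmgcs1*, 2 times each for *Idi1* and for the *Dhcr7* window shown, and 1 time for *Lss*, and 37.4% of all windows hold at least 1. The other 2 *Dhcr7* windows held no CCAAT box, and 1 of them held an E-box, which occurs in 7.15% of all windows.

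Signal is given as log2 intensity minus the array's own 75th percentile, so that 0 is the level of that percentile. Where a gene had several probes, the brightest on average stands for it. The 7 genes had 12 probes, of which 10 were tested, and the probe standing for each of the 7 was well above background on all 6 arrays. *Fdps* and *Sqle* were higher in the arrays labelled Atg5f/f;Vav and passed the test, limma with Benjamini-Hochberg adjustment over all 32074 probes tested and a threshold of 0.05. *Fdps* rose by 0.94 on the log2 scale, or 1.92-fold, and *Sqle* by 0.52, or 1.43-fold. *Idi1*, *Fdft1*, *Lss* and *Dhcr7* did not pass, with differences of 0.40 to 0.64, and *Hmgcs1* had the smallest difference of the 7, 0.15. The count of 2 of 7 genes passing compares with 34.7% of all 15101 genes tested, and 21.2% of genes passed as higher, so the share that passed was near the background. On the other measure, 6 of the 7 genes had no overlap between groups, each with all Atg5f/f;Vav arrays above all control arrays, against 33.3% of genes tested. The median difference was 0.46 for the 7 genes and 0.02 for all genes tested, whose quartiles were −0.34 and 0.36. In these bulk samples, fewer cells of a type and less RNA per cell cannot be told apart.

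**Figure D1:**
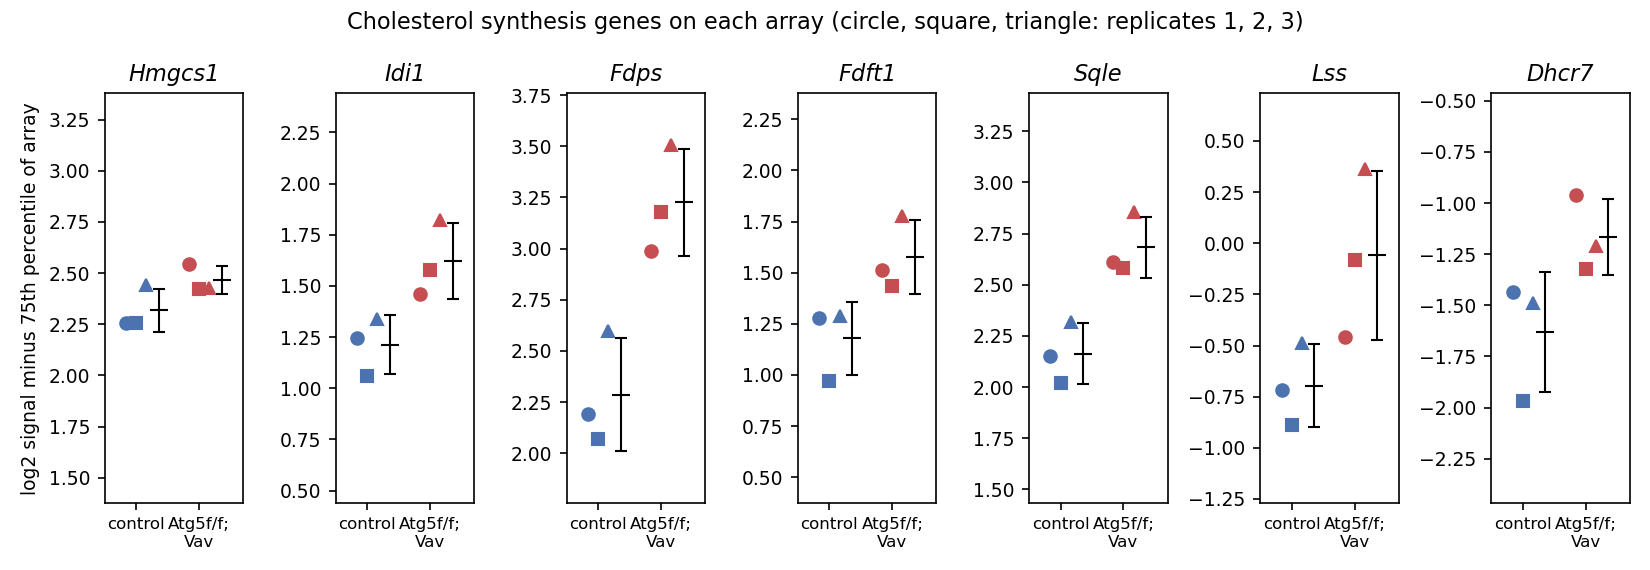
Log2 signal of each of the 7 genes (vertical axis, log2 intensity minus the array's 75th percentile, 1 panel per gene, each spanning 2 log2 units) on 3 control arrays (blue) and 3 arrays labelled Atg5f/f;Vav (red). Black bars are the mean and SD of 3 arrays. The groups overlap for *Hmgcs1* alone among the 7, and the widest gap between them is that of *Fdps*, 0.39.

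All 6 arrays lay on 1 slide and were scanned once, with control arrays in one slide row and the others in the next, so that row cannot be told apart from genotype. Without control replicate 1 the number of probes that passed went from 11024, which is 34.4% of those tested, to 330, and without control replicate 2 to 251. The *Atg5* probe itself read 1.10, 0.93 and 1.06 in control and 1.46, 1.51 and 1.74 in the other arrays. It was higher by 0.54 in the arrays labelled Atg5f/f;Vav (adjusted p = 0.0209 from limma), and it was not determined if the probe falls inside the deletion, so each direction given here rests on the labels. Of the LSK marker genes, *Ly6a*, which encodes Sca-1, was higher by 1.57 (adjusted p = 0.00623) and *Kit* fell on 2 of its 3 probes, by 0.67 and by 0.62 (adjusted p = 0.0207 and 0.0231), while its brightest probe had −0.38 (adjusted p = 0.0563).

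*Hmgcs1* encodes the cytosolic HMG-CoA synthase, an early enzyme of the mevalonate pathway. Its probe, placed on chromosome 13_random of mm9 from 114793 to 114852, read 2.26, 2.26 and 2.44 in the control samples, compared with 2.54, 2.42 and 2.43 in Atg5f/f;Vav. Control replicate 3 lay above 2 of the 3 Atg5f/f;Vav arrays, and the groups overlapped. The estimate of 0.15 (standard error 0.11) did not pass in limma (adjusted p = 0.318). A second *Hmgcs1* probe, made from a cDNA clone, was well above background on 1 of 6 arrays and was not tested.

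*Idi1* encodes isopentenyl diphosphate isomerase, which converts isopentenyl diphosphate to its reactive isomer. Its single probe, on chromosome 13 of mm9 from 8891524 to 8891583, read 1.25, 1.06 and 1.34 in the control samples, compared with 1.46, 1.58 and 1.82 in Atg5f/f;Vav. The lowest Atg5f/f;Vav array exceeded the highest control array by 0.12. The difference of 0.41 (standard error 0.14) had an adjusted p of 0.0606 from limma.

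*Fdps* encodes farnesyl diphosphate synthase, which makes the last intermediate shared by sterols and prenyl groups. Its single probe, on chromosome 3 of mm9 from 88897549 to 88897608, read 2.19, 2.07 and 2.60 on the control arrays. On the Atg5f/f;Vav arrays it read 2.99, 3.18 and 3.51. Every Atg5f/f;Vav array was above every control array, and 3.41% of all tested probes had a larger positive difference than its 0.94 (standard error 0.19, adjusted p = 0.0178 from limma). Without control replicate 1 or 2 the difference was 0.89 or 0.83 and the adjusted p 0.0699 or 0.0738.

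*Fdft1* encodes squalene synthase, the first enzyme committed to sterols. The representing probe, on chromosome 14 of mm9 from 63765457 to 63765516, read 1.28, 0.97 and 1.29 in the control samples, compared with 1.51, 1.44 and 1.78 in Atg5f/f;Vav. A second probe, whose ends lie at 63765750 and 63769990 and which begins at base 1875 of the transcript, read −0.89, −1.18 and −0.73 against −0.52, −0.70 and −0.27. Neither probe overlapped between groups and both gave similar differences, 0.40 (standard error 0.15, adjusted p = 0.073 from limma) and 0.44 (standard error 0.17, adjusted p = 0.0809).

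*Sqle* encodes squalene epoxidase, a rate-limiting enzyme of the sterol branch that uses oxygen. Its representing probe, on chromosome 15 of mm9 from 59162688 to 59162747, read 2.15, 2.02 and 2.32 in the control samples, compared with 2.61, 2.58 and 2.86 in Atg5f/f;Vav. The groups were 0.26 apart at their nearest arrays. The increase of 0.52 (standard error 0.13) passed in limma (adjusted p = 0.0279). It was 0.51 (adjusted p = 0.0956) with control replicate 1 left out and 0.45 (adjusted p = 0.103) with control replicate 2 left out. Scaling also ended the call, with 0.30 (adjusted p = 0.0743) after quantile normalisation and 0.31 (adjusted p = 0.0607) with the 75th percentile taken over detected probes only. A further *Sqle* probe, designed on another transcript, was well above background on 0 of 6 arrays.

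*Lss* encodes lanosterol synthase, which folds oxidosqualene into the first sterol. Its representing probe, on chromosome 10 of mm9 from 76016592 to 76016651, read −0.72, −0.89 and −0.49 in the control samples, compared with −0.46, −0.08 and 0.36 in Atg5f/f;Vav. The spread among Atg5f/f;Vav arrays (SD 0.41, n = 3) was the widest of the 7 genes, and the nearest arrays of the groups were only 0.03 apart. The estimate of 0.64 (standard error 0.22) had an adjusted p of 0.0633 in limma, and with Atg5f/f;Vav replicate 1 left out it was 0.84 and passed (adjusted p = 0.0275). The probes of *Lss* disagreed by place on the transcript. The probe that begins at base 2436 gave 0.55 (adjusted p = 0.111) and the representing one, at base 3036, gave 0.64, whereas the probe at base 5957 gave −0.21 (adjusted p = 0.202), with overlapping groups.

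*Dhcr7* encodes 7-dehydrocholesterol reductase, which forms cholesterol in the last step of the branch through 7-dehydrocholesterol. Its single probe, on chromosome 7 of mm9 from 151033874 to 151033933, read −1.43, −1.97 and −1.49 in the control samples, compared with −0.96, −1.32 and −1.21 in Atg5f/f;Vav. Control replicate 2 lay well below the other control arrays, and without it the difference went from 0.46 (standard error 0.18, adjusted p = 0.0834 from limma) to 0.30. For each of the 6 genes without overlap, a 2-sided exact permutation test over arrays gave p = 0.1, which is as low as a comparison of 3 with 3 can reach, and *Hmgcs1* gave 0.3.

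On some arrays the 7 genes deviated to the same side, also within a group. Relative to each gene's control mean, the median of the 7 was −0.01, −0.19 and 0.14 on control replicates 1, 2 and 3. It was 0.34, 0.37 and 0.61 on the Atg5f/f;Vav arrays. On control replicate 2 all 7 genes lay below their control mean and on control replicate 3 all 7 lay above it, while control replicate 1 had 3 above and 4 below. Within the Atg5f/f;Vav group, all 7 lay below the group mean on replicate 2, and on replicates 1 and 3 *Hmgcs1* and *Dhcr7* lay on the other side of it from the remaining 5. The same median over all genes tested stayed between −0.03 and 0.05 on the 6 arrays. The 14 proliferation genes had medians of 0.02, −0.25 and 0.23 in the control samples, compared with 0.69, 0.62 and 1.08 in Atg5f/f;Vav. The order of the control arrays was that of the 7 genes, and the order of Atg5f/f;Vav replicates 1 and 2 was not.

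Whether some of the 7 genes differed more than others was examined within arrays, where scaling by 1 constant per array cancels. *Fdps* minus *Hmgcs1* was −0.06, −0.19 and 0.16 in the control samples, compared with 0.45, 0.76 and 1.08 in Atg5f/f;Vav, a change of 0.79. *Sqle* minus *Hmgcs1* was −0.10, −0.24 and −0.12 against 0.07, 0.16 and 0.43, a change of 0.37. For both pairs the groups did not overlap, and the exact permutation test gave p = 0.1, or 0.3 after Benjamini-Hochberg adjustment over the 6 genes compared with *Hmgcs1*. For *Idi1*, *Fdft1*, *Lss* and *Dhcr7* the change against *Hmgcs1* was 0.25 to 0.49 and the groups overlapped. *Hmgcs1* was taken as the reference after its values had been seen. The 5 other genes whose 6 signals, after centring, lay nearest to the mean profile of the 7 were *Top1mt*, *Cops4*, *Dmac1*, *Eef1akmt1* and *Aste1*, with root mean square distances of 0.024 to 0.026 over 6 arrays.

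The other enzymes of the mevalonate and sterol pathway were listed to place the 7 genes in their route. Of the 13 further enzymes tested, 11 were higher in the arrays labelled Atg5f/f;Vav, 5 passed the test as higher and 0 as lower, against 21.2% and 13.5% of all genes, and the median was 0.39. For 10 of them the groups lay apart with all Atg5f/f;Vav arrays above, against 33.3% of all genes. These counts rest on the brightest probe of each gene. Of all 28 tested probes of the 13 enzymes, 11 passed as higher and 2 as lower, against 5540 and 5484 of all 32074 probes. Those lower were further probes of *Nsdhl* (−0.46) and *Sc5d* (−0.64). *Ebp*, a sterol isomerase, *Erg28*, a scaffold for sterol enzymes, and *Pmvk*, phosphomevalonate kinase, had the largest differences among those that passed, 0.64, 0.54 and 0.42 (adjusted p = 0.0167, 0.0226 and 0.049 from limma). *Msmo1* and *Hsd17b7*, which act in removing methyl groups from lanosterol, also passed, with 0.39 and 0.40. Further probes of *Msmo1* gave 0.55, which passed, and −0.26, which did not (adjusted p = 0.345 from limma). That of *Hsd17b7* gave 0.48 and passed. *Cyp51*, the lanosterol demethylase, had 0.30 (adjusted p = 0.0651 from limma) on one probe and −0.02 on the other. *Ggps1*, which takes farnesyl diphosphate towards geranylgeranyl groups, had −0.11 on its brightest probe, which did not pass, and between −0.51 and 0.35 on 5 further probes, of which that with 0.35 passed (adjusted p = 0.0396 from limma). *Tm7sf2* had −0.07 and 0.13 on its probes, neither of which passed. Over the 7 genes and the 13 further enzymes together, 7 of 20 passed as higher and 0 as lower on the brightest probe, and 16 had no overlap between groups, against the same 21.2%, 13.5% and 33.3% of all genes.

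**Figure D2:**
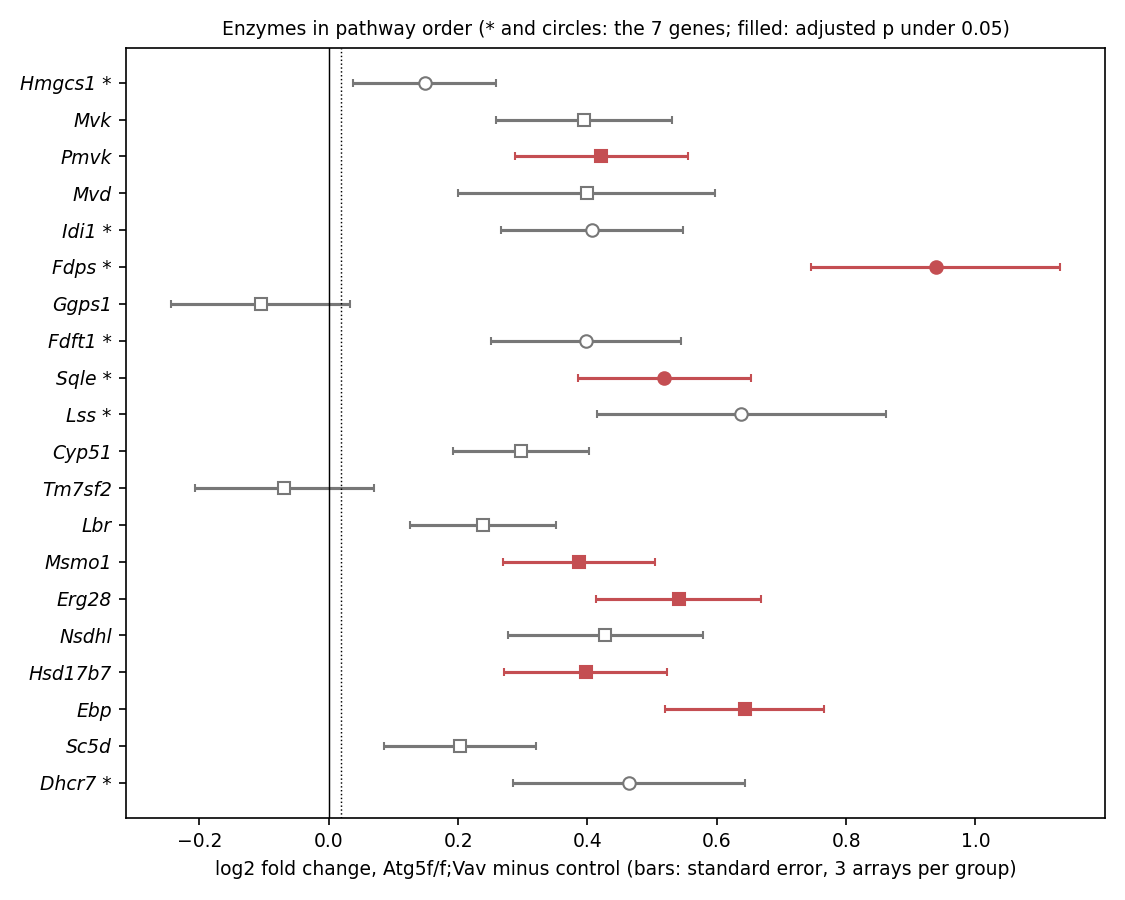
Log2 fold change of 20 enzymes (horizontal axis, Atg5f/f;Vav minus control, bars the standard error from limma, 3 arrays per group) in the order of the pathway from top to bottom, with the branches after lanosterol in sequence. Filled red marks passed an adjusted p of 0.05, the dotted line is the median of all genes, 0.02, and 18 of the 20 marks lie above 0.

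Uptake, regulation and disposal of sterols were described by lists of their own, since the enzyme genes are known to share control with some of them. Of 10 uptake and trafficking genes tested, 1 passed as higher and 1 as lower on the brightest probe, against 21.2% and 13.5% of all genes, and the median was 0.08. Of their 20 tested probes, 1 passed as higher and 4 as lower, against 5540 and 5484 of all 32074 probes. *Npc1*, which exports cholesterol from lysosomes, had −0.50 on its brightest probe (adjusted p = 0.059 from limma) and fell by 1.08 and by 1.10 on its further probes (adjusted p = 0.02 and 0.0187). *Scarb1*, a receptor for high-density lipoprotein, rose by 0.49 (adjusted p = 0.0293). *Mylip*, which encodes a ubiquitin ligase, fell by 0.66 (adjusted p = 0.0371 from limma).

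Of 10 SREBP pathway regulators, limma called 0 on the brightest probe, against 34.7% of all genes tested. An unadjusted p under 0.05 was reached by 3 of them in limma, against 15506 of all 32074 probes. The test named in the methods gave 2, against 13541 of all probes. After adjustment that test called 0 of all 32074 probes, so its 0 for this list says nothing about the list. Of all 20 tested probes of the list, 0 passed as higher and 3 as lower, where 34.4% of all probes passed in either direction. Those lower were 2 of *Mbtps2*, which encodes a protease that cleaves SREBP (−1.004 and −0.454), and 1 of *Rnf145*, a ubiquitin ligase gene (−0.40). With the mean of a gene's probes, 1 of the 10 passed, against 7018 of all 20778 names tested that way. The list had a median of −0.01. With normexp background correction or with the 75th percentile over detected probes, 2 of the 10 passed, against 11517 or 13459 of all 32074 probes. *Srebf2*, which encodes SREBP2, had a difference of −0.18 (adjusted p = 0.201 from limma), which was −0.34 (adjusted p = 0.0423) after quantile normalisation and −0.39 (adjusted p = 0.0239) with the percentile over detected probes. *Insig1*, an SREBP target that holds SCAP in the endoplasmic reticulum, had −0.06 (adjusted p = 0.845 from limma).

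The list of sterol efflux, LXR and esterification genes was divided. Of 12 genes tested, 2 passed as higher and 4 as lower, against 21.2% and 13.5% of all genes, and the median was −0.47. *Abca1*, the cholesterol exporter, read −1.42, −1.35 and −1.43 in the control samples, compared with −2.22, −2.53 and −3.72 in Atg5f/f;Vav, a fall of 1.42 on the log2 scale (adjusted p = 0.027 from limma). Its level was lowest on Atg5f/f;Vav replicate 3, and with control replicate 3 left out the fall of 1.44 did not pass (adjusted p = 0.063 from limma). *Nceh1*, a cholesteryl ester hydrolase, and *Soat1*, which esterifies cholesterol, fell by 0.67 and by 0.50 (adjusted p = 0.0247 and 0.0453 from limma). *Soat2*, the other sterol acyltransferase, rose by 2.20 (adjusted p = 0.0158) and *Apoe*, an apolipoprotein, rose by 0.94 (adjusted p = 0.0146 from limma). Further probes of *Soat2* and *Apoe* gave 2.58 and 1.14.

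Of 13 genes of the isoprenoid branch, which draws on the product of *Fdps*, 7 passed as higher and 0 as lower, against 21.2% and 13.5% of all genes, with a median of 0.41. *Pdss1*, which builds the ubiquinone side chain, rose by 0.91 (adjusted p = 0.0166 from limma). *Rabggtb* and *Fntb*, subunits of prenyltransferases, rose by 0.87 and 0.71. Of 11 fatty acid synthesis genes tested, 3 passed as higher and 1 as lower, against the same shares, with a median of 0.17. *Acss2*, which makes acetyl-CoA from acetate, *Fads2*, a desaturase, and *Fasn*, the fatty acid synthase, rose by 1.20, 0.57 and 0.54 on their representing probes. The further probes of *Acss2* gave 0.91, 0.19 and 0.21, and those of *Fads2* gave 0.46, 0.18, −0.14 and −0.08. *Fasn* had 0.19 (adjusted p = 0.232 from limma) after quantile normalisation and 0.34 (adjusted p = 0.0518) with the percentile over detected probes. *Fads1*, another desaturase, fell by 0.37 on its representing probe, while its further probes gave 0.36 and −0.23. Over these 6 lists, 24 of 69 genes passed, 18 as higher and 6 as lower, against the 34.7% of all genes tested that passed. The balance depended on scaling. After quantile normalisation it was 12 higher and 9 lower, against 4714 and 3705 of all 32074 probes. With the percentile over detected probes it was 9 higher and 11 lower, against 3371 and 10088. With control replicate 1 left out, limma called none of the 69 genes and none of the 7. An unadjusted p under 0.05 was reached there by 20 and 4, against 11616 of all 32074 probes. With control replicate 2 left out the calls were again 0 and 0, where 20 and 2 had an unadjusted p under 0.05, against 11455 of all probes. With Atg5f/f;Vav replicate 2 or 3 left out, 14 or 15 of the 69 passed, against 7722 or 9701 of all probes.

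**Figure D3:**
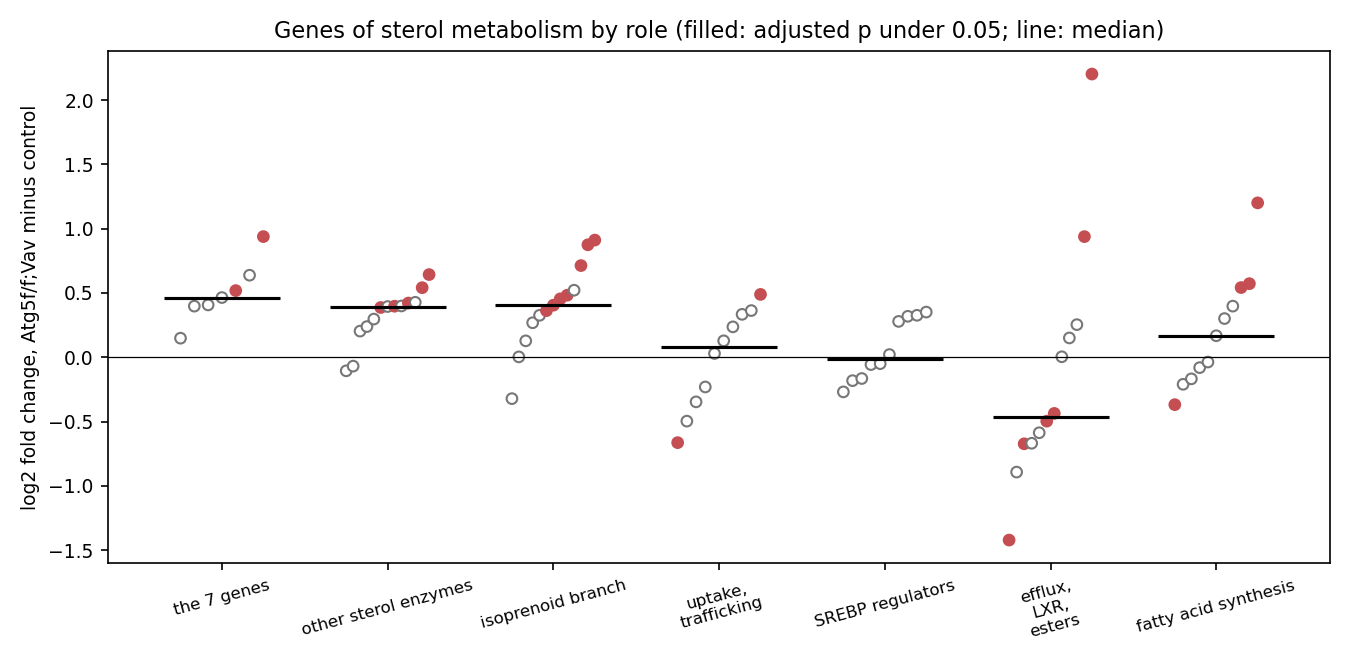
Log2 fold changes (vertical axis, Atg5f/f;Vav minus control) of the 7 genes and of the 6 other lists of sterol metabolism, 1 point per gene, with filled points for an adjusted p under 0.05 and a line at the median. The medians run from −0.47 for efflux, LXR and esterification to 0.46 for the 7 genes.

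Other groups of genes were compared between the same arrays, where 21.2% of all genes tested passed as higher and 13.5% as lower. All 14 proliferation genes were higher and passed, with a median of 0.81, and their summed signal (1 being the 75th percentile) was 129 to 171 in control and 224 to 298 in Atg5f/f;Vav arrays. The summed signal of the 7 cholesterol genes was 17.9 to 22.5 and 26.7 to 32.7. Neutrophil granule genes were lower in 8 of 8 cases, all of which passed, with sums of 80.0 to 167 against 38.3 to 68.1. Myeloid progenitor genes passed as higher in 3 of 6 cases, with sums of 76.0 to 179 against 208 to 263. These sums weigh *Mpo* most, the brightest of the 6, with a control mean of 6.56. The 3 that did not pass were *Ms4a3* (0.64), *Elane* (−0.21) and *Cebpe* (−0.48). Of 12 erythroid genes, 6 passed as higher, among them *Klf1*, *Gata1* and *Tfrc*, and 3 as lower, which were globin genes and *Alas2*. The median of the 12 was 1.19. Their sums were 365 to 731 against 173 to 242, and they weigh the brightest genes most. These were the globin genes *Hba-a1* and *Hbb-bt*, with control means of 8.49 and 7.45. Stem cell markers passed as lower in 5 of 12 cases and as higher in 1, with sums of 65.1 to 68.6 against 40.4 to 54.3.

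Of the remaining marker lists, 3 of 6 stromal genes tested passed as lower. Their list summed to 9.67, 39.9 and 29.8 on control replicates 1, 2 and 3, against 5.38 to 8.63 in Atg5f/f;Vav. Control replicate 1 thus lay near the Atg5f/f;Vav arrays, and control replicates 2 and 3 held most of this signal. Of 7 megakaryocyte genes 1 passed as higher and 2 as lower, of 8 B cell genes 1 as higher, of 5 macrophage genes 1 as lower and of 5 T and NK cell genes 0. The shares over all genes tested were 21.2% as higher and 13.5% as lower. No adipocyte or hepatocyte marker of the 6 listed was well above background on 3 arrays. The part of these cell groups in the values of the 7 genes was not tested.

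The values of the 7 genes depended on scaling. With the 75th percentile taken over the probes detected on all 6 arrays, the median of all probes moved from −0.06 to −0.27, the split of probes from 5540 higher and 5484 lower to 3371 and 10088, and the median of the 7 genes from 0.46 to 0.26. Since these scalings differ by 1 constant per array, the distance between the 7 genes and all probes is 0.53 with either by construction, and it was 0.31 after quantile normalisation. *Hmgcs1* was −0.058 with that percentile, a shift it shares with all genes, and −0.054 after quantile normalisation, whereas *Fdps* stayed between 0.69 and 0.96 under the 11 alternatives of processing and test, of which the methods' t-test alone did not call it.

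**Figure D4:**
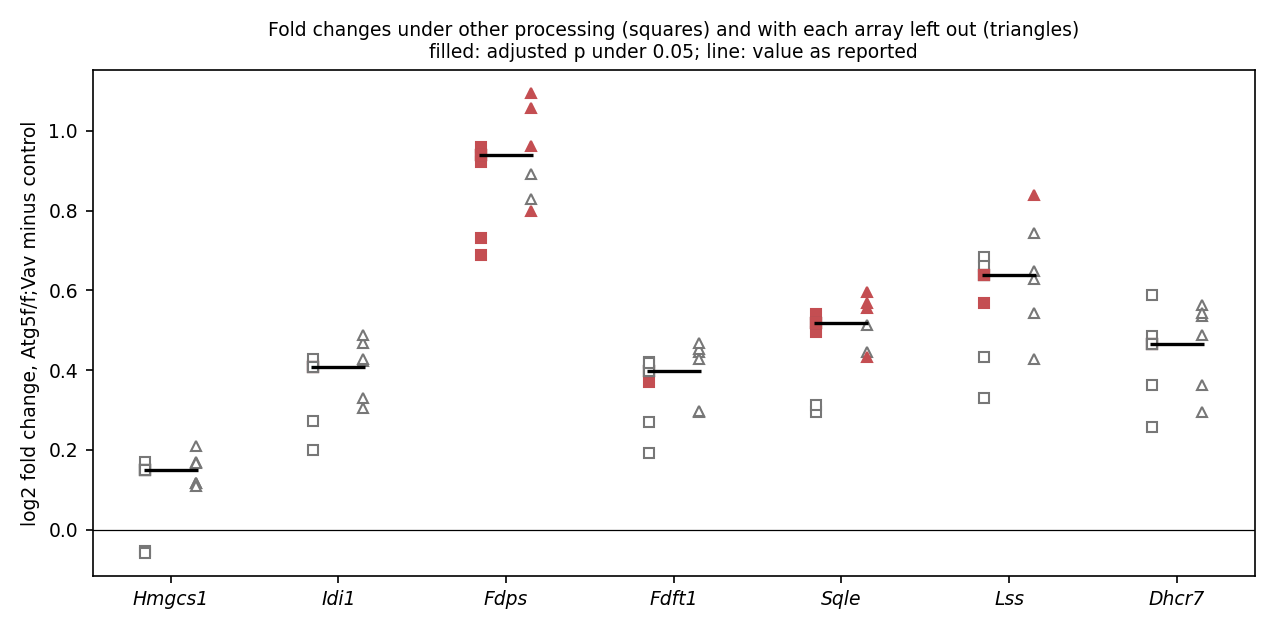
Log2 fold change of each of the 7 genes (vertical axis, Atg5f/f;Vav minus control) under 11 alternatives of processing or test (squares) and with each of 6 arrays left out (triangles), with a black line at the value given in the text. Filled marks passed an adjusted p of 0.05, and *Hmgcs1* is the only one of the 7 with values under 0.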

How the data were processed

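Total RNA of LSK cells was profiled on 6 single-colour (Cy3) Agilent arrays designed on mm9. Per the labels and file headers, the authors extracted the intensity with Agilent Feature Extraction 12.0.3.1, which subtracts background and detrends each spot and does not scale between arrays. A table of linear normalised signal that the authors deposited served as an alternative. From the intensity, log2 values were computed and the array's own 75th percentile was subtracted, taken over its 59305 gene spots. No spot was saturated, spots marked as outliers (64 to 81 on each array) were dropped, and repeat spots of a probe were averaged. Of 56605 probes, the 32074 that Feature Extraction marked as well above background on 3 or more arrays were fitted with lmFit and eBayes of limma 3.58.1 under R 4.3.3. Between 53.6% and 59.9% of spots per array were well above background. Arrays give no read depth, so precision is limited by how many there are. Replicates are arrays labelled as separate samples. Array names were matched to RefSeq genes by symbol (23666) or by 1 synonym (1110), and 12298 names were unmatched. *Acat2* was not analysed here.

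The 7 genes and all lists were chosen with earlier results of these data known. Named genes are the 7, up to 3 per list and direction among those that passed, with the largest difference and well above background on all 6 arrays, the 5 nearest in profile, and a few fixed genes, of which *Srebf2*, *Insig1*, *Cyp51*, *Abca1* and *Fasn* are given. Some genes of the pathway are not reported here and stand in no list or count of a list. *Msmo1*, *Hsd17b7*, *Ggps1*, *Tm7sf2*, *Nsdhl*, *Sc5d*, *Npc1*, *Mbtps2*, *Rnf145* and the markers named were added after their values had been seen. The settings varied were the background correction (normexp, offset 50), the scaling (quantile, or a percentile from those probes that every array detected), the input (deposited values), the filter (none, or all 6 arrays), the outlier spots (retained), the test (the methods' t-test, or eBayes given a trend on intensity), a block on replicate number, the arrays (leaving out each) and the choice of probe (mean over a gene's probes). With a single slide, no slide block could be had. The fitting step was tested on simulated data.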

Additional observations from a re-analysis of the deposited data

How the results depend on the processing

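Of the 7 genes, 2 passed as given, against 11024 of all 32074 probes. The number was 5 with normexp background correction or with an intensity trend, against 11517 or 12180 of 32074. It was 4 with a filter on all 6 arrays, against 10710 of 28118, or with the replicate number as a block, against 10173 of 32074. With quantile normalisation or the 75th percentile from probes that all arrays detected it was 1, against 8419 or 13459 of 32074. Without a filter on dim probes it was also 1, against 4538 of 56605. The methods' t-test called 0 of the 7 genes, 0 of the 69 other genes and 0 probes after Benjamini-Hochberg adjustment, with 3 of the 7, 39 of the 69 and 13541 probes at an unadjusted p under 0.05. Without a filter, 4538 probes and 6 of the 69 genes passed. With each array left out in turn, 0 to 3 of the 7 genes, 0 to 20 of the 69 and 251 to 10304 probes passed, and the median difference of the 7 genes lay between 0.33 and 0.54. That median was 0.26 with the 75th percentile over detected probes. *Hmgcs1* reversed to −0.054 with quantile normalisation and to −0.058 with that percentile. *Insig1* went to 0.10 with quantile normalisation, to 0.01 without control replicate 1 and to 0.13 without Atg5f/f;Vav replicate 1, within a range of −0.26 to 0.13 over the arrays left out. The cause of the changes was not tested. The deviations of arrays with the same replicate number correlated at −0.07, 0.19 and 0.11 across probes for numbers 1, 2 and 3. Between arrays of different numbers the correlations ran from −0.30 to 0.13. Deviations from a mean of 3 arrays cancel within each group, so these values cannot decide if the numbers pair the arrays. The block gave 10173 probes in place of 11024 and 4 of the 7 genes in place of 2.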
